A study of Mus musculus with 10 samples.

Results

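The layout of H3K4me3 and H3K27me3 relative to each other was described in wild-type (WT) mouse embryonic stem cells, from the lists of enriched intervals, called islands, of 1 ChIP library per mark. All islands on the 19 autosomes were taken, 27207 of 28365 H3K4me3 islands and 7782 of 8067 H3K27me3 islands, or 34989 of 36432 in all. An island of one mark was said to overlap the other mark when it shared 1 bp or more with an island of that mark. The series asked how BAF250a (also ARID1A), which belongs to a SWI/SNF-type nucleosome remodeller, affects nucleosomes and histone marks, and only its WT lists are used here. The WT cells, of strain 129/C57BL/6, were grown with LIF on mouse embryonic fibroblast feeders and given ethanol for 36 hours from 4 hours after passage. They were then fixed in 1% formaldehyde for 10 minutes, and micrococcal nuclease followed by a short sonication fragmented the chromatin. The labels name no allele carried by the WT line. Feeder chromatin could be present in both libraries, and its share was not tested, since marker genes need a gene annotation of the build used (mm9).

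H3K4me3, trimethylation of lysine 4 of histone H3, is laid down by MLL/SET1 complexes and marks the promoters of active and poised genes, many of them at CpG islands. H3K27me3, trimethylation of lysine 27, is laid down by Polycomb repressive complex 2 and covers silent developmental genes. In embryonic stem cells many promoters of developmental regulators carry both marks, a state called bivalent, in which a H3K4me3 peak commonly sits within a wider H3K27me3 domain. The same overlap in a bulk library can also come from cells or alleles that carry one mark each, which these data cannot tell apart.

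The H3K4me3 islands were many and dense, and the H3K27me3 islands fewer and sparse in reads. H3K4me3 islands held 9347232 ChIP reads over 98.6 Mb, or 94.8 reads per kb at a pooled fold of 4.15 over control. H3K27me3 islands held 1086422 reads over 34.3 Mb, or 31.7 reads per kb at a pooled fold of 2.29. Fold here is ChIP over control (input) reads, scaled by the depth ratio of the 2 libraries. The median H3K4me3 island was 2.4 kb wide (range 0.2 to 46 kb) with 137 reads, and the median H3K27me3 island 3 kb wide (0.2 to 156 kb) with 70 reads. Widths also follow the island caller, which bridged gaps of up to 200 bp for H3K4me3 and 600 bp for H3K27me3. There was 1 library per mark, so no spread between replicates and no p-value could be given. The 95% intervals below treat the islands of a list as independent draws and do not cover differences between libraries.

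Overlap took in a small part of the H3K4me3 list and a larger part of the H3K27me3 list. Of the H3K4me3 islands, 2970 overlapped H3K27me3 (10.9%, 95% interval 10.5 to 11.3%), and they held 8.75% of the H3K4me3 reads. Of the H3K27me3 islands, 2947 overlapped H3K4me3 (37.9%, 36.8 to 39.0%), and they held 62.9% of the H3K27me3 reads. The shared length was 6.79 Mb, or 6.88% of the H3K4me3 length and 19.8% of the H3K27me3 length. For scale, between the first and last island of each autosome H3K4me3 covered 4.09% and H3K27me3 1.42% of the sequence. With a deposited fold of 2 or more required in both lists, the overlapping islands fell to 1339 of 20197 for H3K4me3 (6.63%) and 1362 of 5399 for H3K27me3 (25.2%). Islands lie on a grid of 200 bp windows, so the smallest possible overlap was 200 bp. The 129 H3K4me3 islands with such an overlap had a median density of 57.9 reads per kb, and the 91 that lay 0 to 200 bp outside H3K27me3 had 57.4.

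The 3490 overlapping pairs took 3 main forms, which differed in the median widths of the 2 marks. In 1931 pairs (55.3%, 53.7 to 57.0%) the islands overlapped at an edge, each running past the other. These edge pairs came from 1530 H3K4me3 and 1872 H3K27me3 islands, so some islands are counted in more than 1 pair. In 1217 pairs (34.9%, 33.3 to 36.5%) the H3K4me3 island lay wholly inside the H3K27me3 island. In 335 pairs (9.60%, 8.64 to 10.6%) the H3K27me3 island lay inside the H3K4me3 island, and in 7 both islands had the same ends. Where H3K4me3 lay inside, its median width was 2 kb against 10.4 kb for H3K27me3. In edge pairs both medians were 3.6 kb, and where H3K27me3 lay inside, the medians were 6.2 kb for H3K4me3 and 2 kb for H3K27me3. A wider island has more room to hold a narrower one, so the order of the widths is partly fixed by the form. The H3K4me3 median density was 45.3 reads per kb inside H3K27me3 (44.2 to 46.2), 66.7 in edge pairs (65.6 to 68.4) and 89.2 around H3K27me3 (86.2 to 91.6). This order goes with the order of the widths, and H3K4me3 islands without any H3K27me3 were also denser when wider, with medians of 40.8 reads per kb over 1 to 2 kb, 65.0 over 2 to 4 kb and 115 over 6 to 10 kb. The H3K27me3 median moved less, at 34.2, 29.1 and 31.4 reads per kb in the same order.

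**Figure D1:**
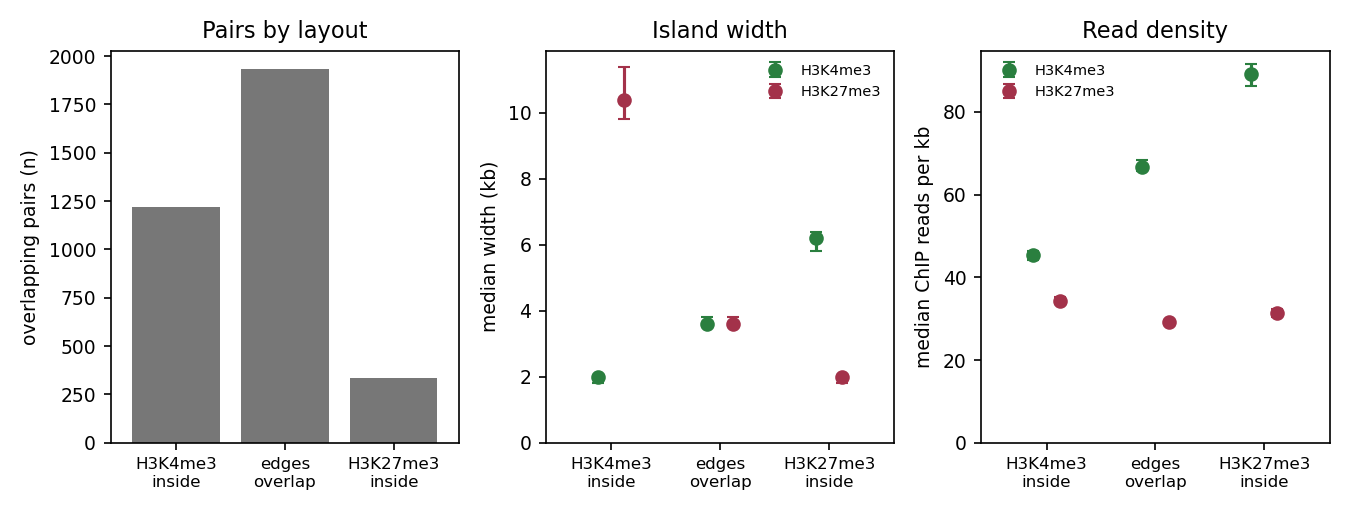
Number of overlapping pairs (left), median island width in kb (middle) and median ChIP reads per kb (right) for H3K4me3 inside H3K27me3, edge overlaps and H3K27me3 inside H3K4me3; error bars are 95% rank-based intervals of the median. H3K4me3 density rises from 45.3 to 89.2 reads per kb from left to right, while the 3 H3K27me3 medians lie between 29.1 and 34.2.

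H3K4me3 inside H3K27me3 was narrow, low in density and somewhat more often central than near an end. The 1217 inside islands lay in 908 H3K27me3 islands, took up a median of 20% of their width, and had a median of 88 reads. The room left on either side was unequal, with a median of 2.2 kb on the shorter side and 5.6 kb on the longer. When that room was cut into 3 equal parts, 357 islands lay in the part at the lower coordinates, 468 in the middle part and 392 in the part at the higher coordinates. The middle part therefore held 38.5% (35.7 to 41.3%). Among the 599 that were the sole H3K4me3 island of their H3K27me3 island, the middle part held 42.2% (38.2 to 46.3%), and among the 618 that shared it with others 34.8% (31.0 to 38.7%). Density near a H3K27me3 end and deep inside was not clearly different: for islands no more than 0.6 kb and more than 2 kb from the nearer end, the intervals overlapped in all 4 width classes. Over 1 to 2 kb wide the medians were 37.5 (n = 107) and 39.4 reads per kb (n = 202). Over 2 to 4 kb they were 53.1 (46.6 to 59.1, n = 72) and 45.9 (43.3 to 48.1, n = 220), with 52.3 (49.5 to 57, n = 116) at distances between, an interval above that of the deep islands. Above 4 kb they were 57.9 (n = 30) and 55.0 (n = 98). Fold over control was higher near the end than deep inside in the classes up to 4 kb. Near and deep folds were 3.00 and 2.15 up to 1 kb, and 2.21 and 1.86 over 1 to 2 kb. They were 2.37 (2.09 to 2.64) and 1.81 (1.73 to 1.93) over 2 to 4 kb, and 1.93 and 1.99 above 4 kb. Only over 2 to 4 kb did the fold intervals not overlap, beside control densities of 12.7 and 15.0 reads per kb.

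Most H3K27me3 islands with H3K4me3 met 1 H3K4me3 island, in any form of overlap, and those that met more were wider and denser. Of 2947, 2586 met 1 (87.8%), 269 met 2, 56 met 3 and 36 met 4 or more, up to 14. Median H3K27me3 width was 3.6 kb with 1 H3K4me3 island, 8.8 kb with 2, 17.9 kb with 3 and 26.1 kb with 4 or more. Their median density went from 29.1 to 35.1, 44.4 and 44.9 reads per kb, beside control densities of 8.22, 9.55, 10.3 and 11.2. The median share of the H3K27me3 width covered by H3K4me3 was 38.9%, 48.5%, 38.9% and 51.2% in the same order, with no steady course. Width was not held equal in this comparison, and longer islands have more room to meet several. H3K27me3 islands above 20 kb had medians of 44.5 reads per kb with H3K4me3 (42.6 to 46.7, n = 141) and 43.0 without (38.6 to 48.1, n = 17).

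Of the 5 H3K27me3 islands named because they met the most H3K4me3 islands, 2 were over 100 kb wide and met narrow ones. The widest H3K27me3 island of all spanned chromosome 15, 102752601 to 102908600 (156 kb, 9754 reads, fold 3.10), and met 11 H3K4me3 islands of 1 to 6 kb that covered 18.7% of it. Their densities ran from 26.5 to 97.1 reads per kb and their folds from 1.26 to 3.12. On chromosome 6, 52091401 to 52228800 (137.4 kb, 9441 reads, fold 3.05) met 7 H3K4me3 islands of 1.6 to 5.8 kb covering 16.4%, with folds of 1.18 to 2.33. In mm9 these stretches hold the Hoxc and Hoxa gene clusters, which encode homeodomain factors of body patterning. These gene names rest on general knowledge of that build, as do the others below, since no annotation of it was used here. The other 3 were narrower. An island on chromosome 13, 12955801 to 13043000 (87.2 kb, fold 2.93), met 14 H3K4me3 islands, each of 0.8 to 3.8 kb and 26.6 to 37.5 reads per kb. On chromosome 4, 145251601 to 145298400 met 10 and 146880801 to 146918200 met 8, and there H3K4me3 covered 61.5% and 60.4% of the H3K27me3 island. A H3K27me3 island of 121.2 kb on chromosome 8, 19917001 to 20038200, was laid out otherwise and held the widest H3K4me3 island of the list (46 kb). Control density at this place was high, against list medians of 5.8 for H3K27me3 and 12.2 for H3K4me3. It was 44.0 reads per kb in the H3K27me3 island (fold 1.27) and 31.5 in the H3K4me3 island (fold 1.66).

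**Figure D2:**
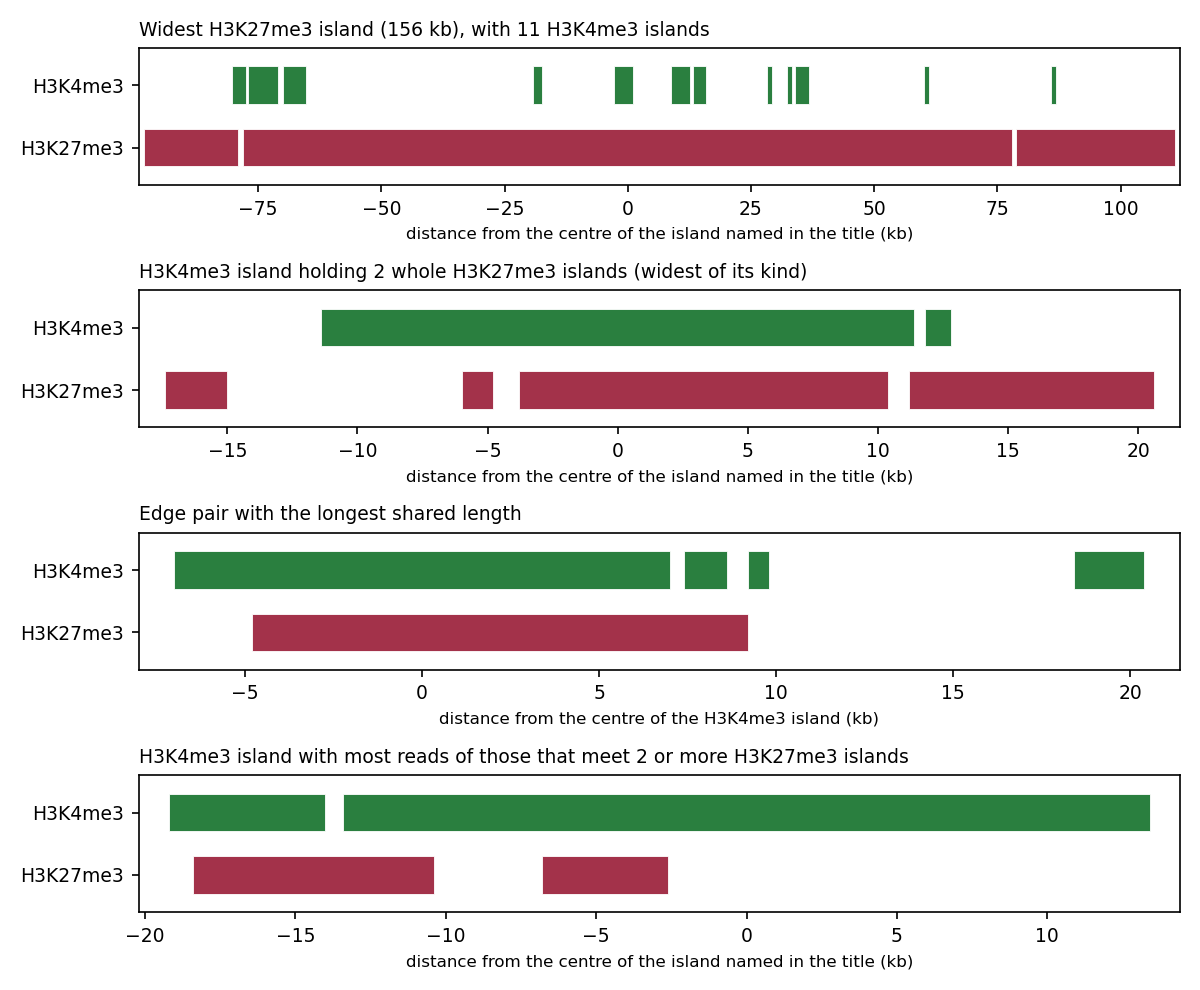
Called islands of H3K4me3 (green) and H3K27me3 (red) at 4 places, drawn to scale in kb from the centre of the island each title names; bars are islands and carry no height. The widest H3K27me3 island (156 kb) meets 11 narrow H3K4me3 islands; below it, H3K27me3 lies inside H3K4me3, overlaps it at an edge, and meets it in 2 separate islands.

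Over the edge pairs, the median shared part of the island was the same for both marks, with a wider spread for H3K27me3. The median shared length was 1.2 kb, which was 33.3% of the H3K4me3 island (quartiles 22.6 and 47.1%) and 33.3% of the H3K27me3 island (17.6 and 54.5%). A median of 2.2 kb of H3K4me3 and 2.2 kb of H3K27me3 lay outside the shared stretch. H3K27me3 lay on the side of higher coordinates in 948 of 1931 pairs (49.1%, 46.8 to 51.3%), so neither side of the chromosome was favoured. The edge pair with the longest shared length, 11.8 kb, lay on chromosome 10, with H3K4me3 from 21867001 to 21881000 (1086 reads, fold 2.72) and H3K27me3 from 21869201 to 21883200 (886 reads, fold 2.64). The next shared 11 kb on chromosome 2, with H3K4me3 from 56964601 to 56978000 (1204 reads, fold 4.57) and H3K27me3 from 56948201 to 56975600 (1178 reads, fold 2.79). The other 3 of the top 5 shared 9.2 to 10 kb, and 2 of them lay on chromosome 4 between 145097001 and 147077800.

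A further form was a H3K4me3 island that met 2 or more H3K27me3 islands, with an uncovered stretch between them. Of the 2970 H3K4me3 islands with H3K27me3, 508 met 2 or more H3K27me3 islands (17.1%, 15.8 to 18.5%), and in 401 of these H3K27me3 ran past both ends of the H3K4me3 island. The 508 had a median width of 4.2 kb. The widest gap between neighbouring H3K27me3 islands inside each had a median of 1.2 kb, or 29.8% of the H3K4me3 island. Stretches left uncovered at the ends of the H3K4me3 island were not counted. The gap was 3 kb or more in 33 of the 508 and at most 1 kb in 232. H3K27me3 gaps over 0.6 to 1 kb are only just past the gap that the caller bridged, so the shortest gaps depend on that setting. Seen from the H3K27me3 list, the space between neighbouring islands held H3K4me3 in 42.4% of 627 spaces over 1 to 2 kb long (38.5 to 46.4%), and H3K4me3 filled the whole space in 36.0% of them. For 936 spaces over 0.6 to 1 kb, 32.6% held H3K4me3 (29.6 to 35.7%). For 655 spaces over 2 to 5 kb it was 24.4% (21.2 to 27.9%), and for 417 spaces over 10 to 20 kb 22.8% (18.8 to 27.1%), although longer spaces have more room.

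The H3K4me3 island with most reads among those 508 lay on chromosome 3, 34544001 to 34570800 (26.8 kb, 3430 reads, fold 5.20), where H3K27me3 covered 26.9% of it in 2 islands. One island ran from 34539001 to 34547000 with 281 reads at a fold of 1.64, and the other from 34550601 to 34554800 with 125 reads at a fold of 1.77. H3K27me3 thus ran past only the lower end of this H3K4me3 island. In mm9 this place holds Sox2, a core pluripotency factor of embryonic stem cells and later a neural regulator. The 335 H3K27me3 islands inside H3K4me3 lay in 319 H3K4me3 islands. The widest H3K4me3 island to hold 2 whole H3K27me3 islands lay on chromosome 14, 49271801 to 49294600 (22.8 kb, 2417 reads, fold 3.54). The 2 were 1.2 and 14.2 kb wide, at 30.8 and 40.3 reads per kb. This place holds Otx2, a homeobox regulator of forebrain and of the exit from pluripotency. The other 4 H3K4me3 islands named by the same rule were 9.8 to 12.4 kb wide with folds of 5.26 to 7.98.

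The 7 intervals with the same ends in both lists allowed both marks to be read over the same bases and the same control reads. At chromosome 6, 54919201 to 54924200, the 5 kb interval held 339 H3K4me3 reads, 108 H3K27me3 reads and 35 control reads, with folds of 5.44 and 1.84. At chromosome 15, 95482601 to 95484200, the counts were 46 and 52 reads over 12 control reads, with folds of 2.15 and 2.58. The remaining 5 were 0.4 to 1.8 kb wide with 24 to 72 reads in either mark, and 3 of the 7 lay on chromosome 4 between 146340001 and 147913200. Apart from the first, the counts are small.

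H3K4me3 islands of middle width overlapped H3K27me3 most often. The share was 5.15% of islands up to 1 kb wide (4.57 to 5.78%), 9.46% over 1 to 2 kb, 18.7% over 2 to 4 kb (17.7 to 19.7%), 13.8% over 4 to 6 kb, 8.02% over 6 to 10 kb and 7.32% above 10 kb (5.86 to 9.01%). All of these are to be read against 10.9% of the whole list. By read density the share rose from 9.30% of islands with up to 40 reads per kb to 16.0% at over 60 to 80, and fell to 2.83% (2.31 to 3.43%) above 120 reads per kb. The densest H3K4me3 islands were thus the ones that least often carried H3K27me3.

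At equal width, H3K4me3 islands wider than 2 kb were less dense with H3K27me3 than without. Over 2 to 4 kb the median was 57.8 reads per kb with H3K27me3 (55.9 to 58.9, n = 1089) and 65.0 without (63.8 to 66.0, n = 4729). The control densities there were 14.1 and 14.2. Over 4 to 6 kb the median was 74.1 reads per kb with H3K27me3 (71.7 to 76.4, n = 537) and 101 without (99.5 to 102, n = 3365), at the same control density of 13.2 reads per kb in both. Over 6 to 10 kb it was 89.7 (86.5 to 93.9, n = 331) and 115 (114 to 116, n = 3798), with control densities of 12.4 and 11.4. Above 10 kb it was 104 (94.0 to 111, n = 82) and 123 (121 to 125, n = 1038), with control densities of 13.6 and 11.4. Islands up to 1 kb and over 1 to 2 kb wide had medians of 41.7 and 42.3 with H3K27me3 and 45.0 and 40.8 without, in opposite directions. Over all widths the medians were 58.4 and 64.4. Among islands over 4 to 10 kb wide the log2 ratio of the medians was −0.44, and it ran from −0.46 to −0.35 over 8 alternative settings and was −0.49 by fold over control.

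**Figure D3:**
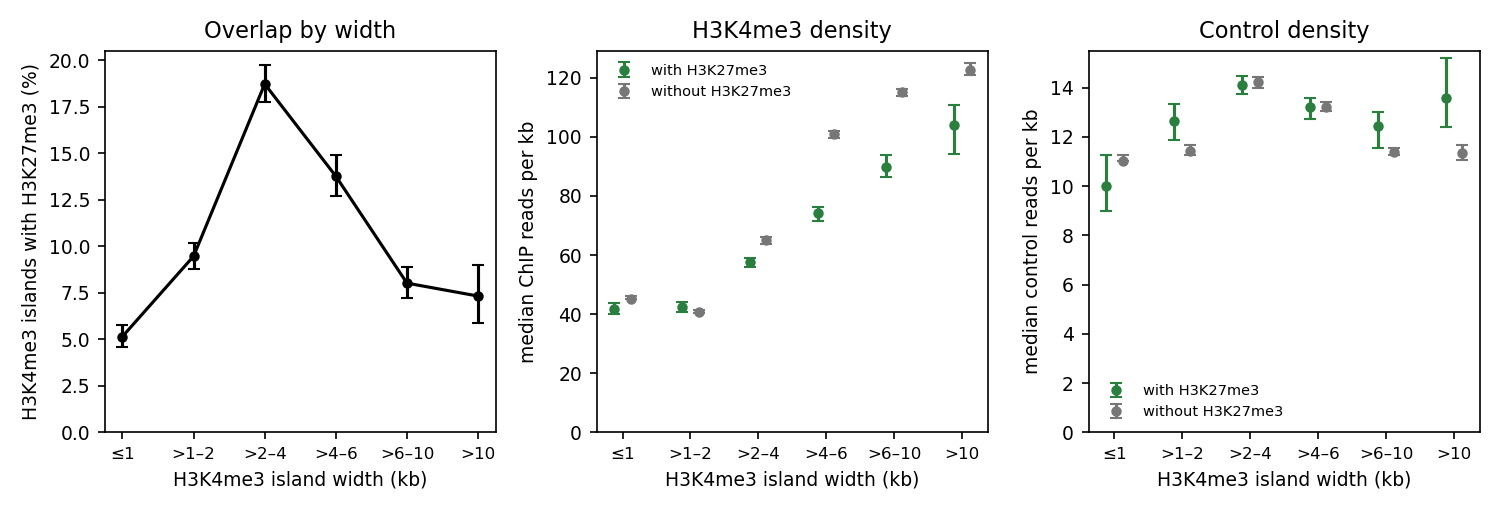
H3K4me3 islands by width class in kb: share that overlap H3K27me3 with 95% exact binomial intervals (left), and median ChIP (middle) and control (right) reads per kb of islands with (green) and without (grey) H3K27me3, with 95% rank-based intervals. The share peaks at 18.7% over 2 to 4 kb, and above 2 kb the green ChIP medians lie below the grey ones.

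The form of the overlap went with the size of this difference. Among islands over 4 to 6 kb wide, those inside H3K27me3 had 56.2 reads per kb (51.3 to 59.2, n = 108, fold 1.95). Those met by 2 or more H3K27me3 islands had 73.4 (68.8 to 76.4, n = 132, fold 3.56). Those met at 1 edge had 82.4 (78.7 to 87.1, n = 229, fold 3.35), those holding a H3K27me3 island 85.5 (76.1 to 90.6, n = 68, fold 4.19) and those with none 101 (fold 4.32). Islands wholly inside H3K27me3 were the lowest by both measures, and their control density was the highest of the 5 classes, 15.6 reads per kb against 11.9 to 13.5. Over 2 to 4 kb the inside class lay furthest below islands without H3K27me3, at 48.9 against 65.0 reads per kb, whereas islands met at 1 edge also had 65.0. Those met by 2 or more H3K27me3 islands had 60.4 (58.5 to 62.8, n = 219). Those holding a H3K27me3 island lay higher, at 72.8 (56.9 to 81.8, n = 36), with a fold of 3.39 against 2.59 without H3K27me3.

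The H3K4me3 islands with most reads differed by class. The 5 with most reads and no H3K27me3 were 28.2 to 43.4 kb wide with 5223 to 7324 reads and folds of 5.73 to 11. The first of them, at chromosome 13, 23506601 to 23549200, had 7324 reads at 172 reads per kb and lay 1.8 kb from the nearest H3K27me3 island. Of the 5, 4 lay on chromosome 13, and 3 of these between 21997201 and 23640400, where mm9 holds the Hist1 cluster of replication-dependent histone genes. Of the 5 with most reads and with H3K27me3, the top 3 had control densities of 31.5 to 58.8 reads per kb, against a list median of 12.2. They lay at chromosome 6, 47600001 to 47637200 and 47687001 to 47717000, and at chromosome 8, 19989801 to 20035800, and their H3K27me3 folds were 1.07, 1.1 and 1.27. The other 2, the Sox2 island and one at chromosome 11, 68921401 to 68941800 (2893 reads, fold 5.08), had control densities of 13.8 and 15.7.

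H3K27me3 islands with H3K4me3 were wider than those without, with medians of 4 and 2.6 kb. The share with H3K4me3 was 27.4 to 27.8% in the 3 classes up to 4 kb and then rose to 50.6% over 4 to 6 kb, 66.9% over 6 to 10 kb and 80.4% above 10 kb (76.6 to 83.8%), against 37.9% of the whole list. Of the 161 islands 20 kb or wider, 142 overlapped H3K4me3 (88.2%, 82.2 to 92.7%). Longer islands have more room to meet another mark, and that part was not separated from the rest.

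Reads per kb and fold over control pointed in opposite directions for H3K27me3 with and without H3K4me3. The median was 29.7 reads per kb with H3K4me3 (29.4 to 30) and 23.7 without (23.5 to 23.9), whereas the median fold was 2.14 and 3.46. Control density differed more than ChIP density, at 8.42 and 4.12 reads per kb. The share with H3K4me3 itself rose with control density, from 4.61% at up to 2 control reads per kb to 75.4% above 12. Within classes of control density both medians were higher with H3K4me3 up to 12 control reads per kb, but in the lowest class the fold intervals overlapped. Fold there, at up to 2 control reads per kb, was 11.3 with H3K4me3 (10.0 to 12.9, n = 52) and 11.1 without (10.7 to 11.5). The control medians of that class were 1.52 and 1.25. At over 4 to 6 control reads per kb, with a control median of 5.00 in both groups, ChIP density was 28.1 (27.6 to 28.8, n = 468) and 23.5 (23.2 to 23.9, n = 897) and fold 3.35 and 2.80. At over 8 to 12 it was 29.5 and 25.5, with folds of 1.79 and 1.6 and control medians of 10.0 and 9.42. Above 12 the densities were 34.0 (32.9 to 35.0) and 35.0 (33.3 to 37.5), and the intervals overlapped. An island had to pass a threshold on ChIP against control reads to be listed, so islands in dense control needed more ChIP reads to appear at all. The part of control density in these differences was not tested beyond these classes.

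**Figure D4:**
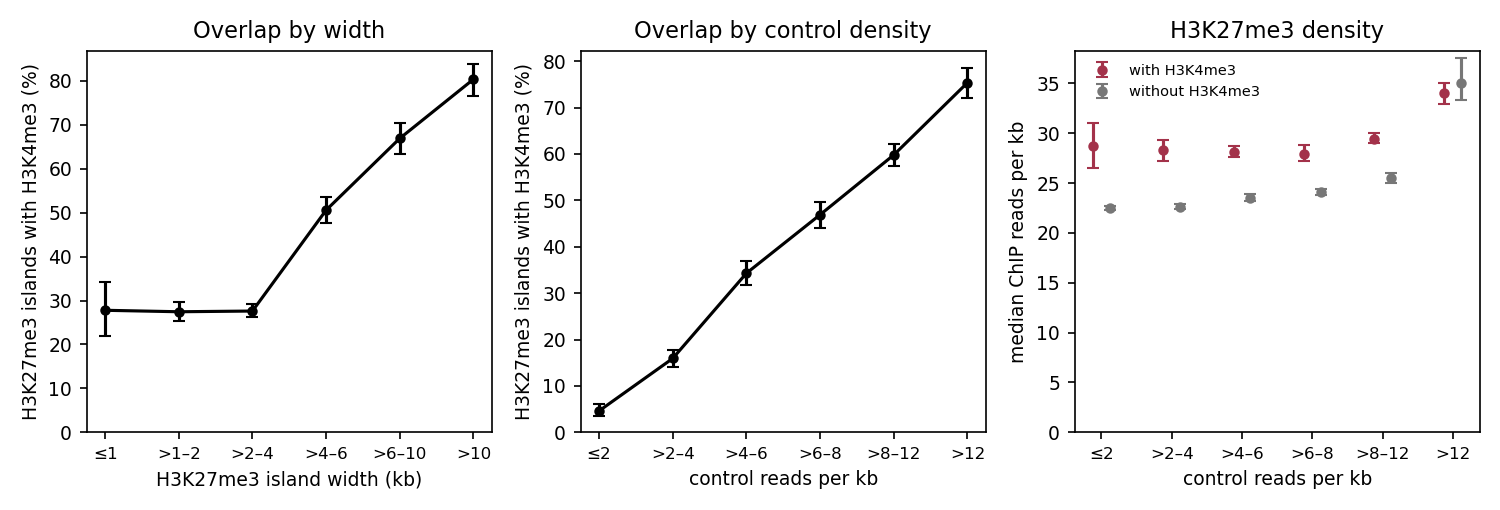
H3K27me3 islands: share that overlap H3K4me3 by width class in kb (left) and by control reads per kb (middle), with 95% exact binomial intervals, and median ChIP reads per kb with (red) and without (grey) H3K4me3 by control class (right), with 95% rank-based intervals. The share rises from 4.61 to 75.4% with control density, and ChIP density is higher with H3K4me3 in every class up to 12 control reads per kb.

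With width and control density both held within classes, the difference was present up to 12 control reads per kb and not steady above. In 3 width classes up to 10 kb, the log2 ratio of the medians with over without H3K4me3 was 0.15 to 0.31 in every class up to 12 control reads per kb. Above 12 it was −0.20 up to 2 kb wide (34.0 and 39.0 reads per kb), 0.06 over 2 to 4 kb and −0.07 over 4 to 10 kb (31.6 and 33.1). Among H3K27me3 islands over 2 to 4 kb wide with over 4 to 8 control reads per kb, density was 26.4 with H3K4me3 (25.7 to 27.1, n = 418) and 22.5 without (22.1 to 22.7, n = 827). Over 4 to 10 kb at the same control density it was 27.9 (n = 366) and 23.4 (n = 313). With neither width nor control density held, 19 of the 19 autosomes had a higher median with H3K4me3, at 27.9 to 31.2 reads per kb against 22.7 to 24.7. This is the comparison by reads per kb over all islands, split by autosome, and not the comparison within classes. Over the 3490 pairs, the density of the H3K4me3 island and that of its H3K27me3 island had a Spearman correlation of −0.18 and a Pearson correlation of −0.14 on log2 values. The folds had 0.32 and 0.34 and the control densities 0.48 and 0.43. Pairs share islands, overlapping bases and the same input library, so these values describe the lists only.

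Islands without overlap were unevenly spaced, and H3K27me3 lay nearer to H3K4me3, the longer list, than the reverse. The nearest H3K4me3 island was a median of 21.4 kb from a non-overlapping H3K27me3 island (20.4 to 22.8), and 1058 of 4835 lay within 5 kb (21.9%). The nearest H3K27me3 island was a median of 160.2 kb from a non-overlapping H3K4me3 island (157.4 to 163.8), and 792 of 24237 lay within 5 kb (3.27%). H3K4me3 density did not follow this distance, with medians of 60 reads per kb at up to 1 kb (55.0 to 66.9), 65.0 at over 1 to 5 kb and 64.0 beyond 100 kb. H3K27me3 density fell from 29.7 reads per kb in overlapping islands to 25.6 at up to 1 kb (25 to 26.4), 24.0 at over 5 to 20 kb and 22.8 beyond 100 kb (22.3 to 23.0). Control density fell over the same classes from 8.42 to 5.83, 4.50 and 2.67 reads per kb, and fold rose from 2.14 to 5.07.

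**Figure D5:**
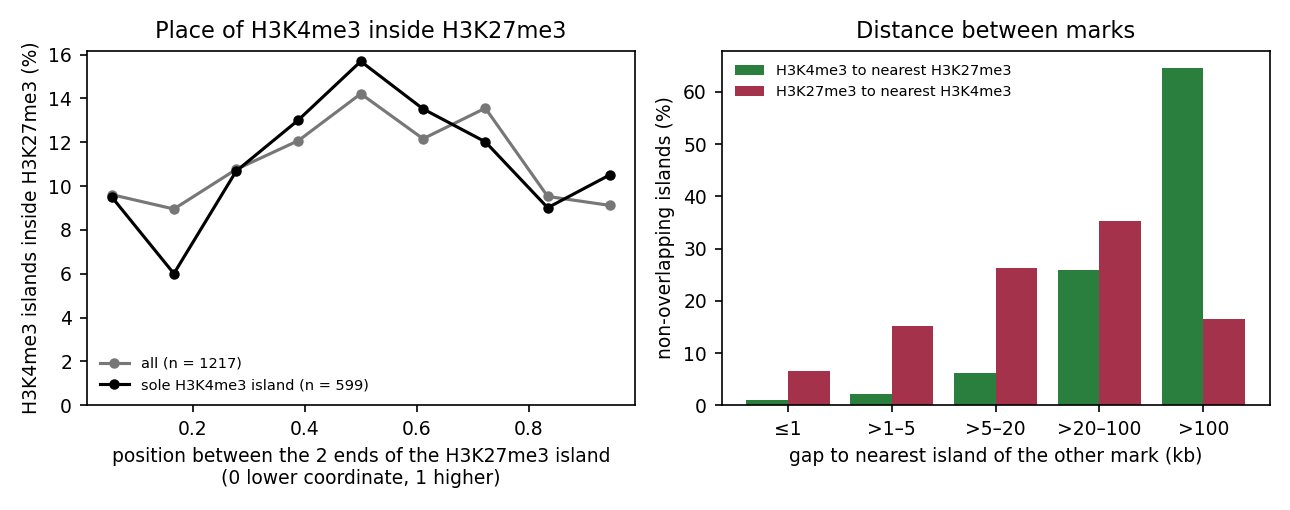
Left, place of the 1217 H3K4me3 islands inside H3K27me3 between the 2 ends of the H3K27me3 island, in 9 equal bins, for all and for the 599 sole H3K4me3 islands. Right, share of non-overlapping islands of each mark by the gap in kb to the nearest island of the other mark; 64.6% of such H3K4me3 islands and 16.6% of such H3K27me3 islands lay more than 100 kb away.

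Some large H3K27me3 domains had no H3K4me3 within 5 kb. Of the 5399 H3K27me3 islands with a fold of 2 or more, 2982 had no H3K4me3 within 5 kb. Among these, the one with most reads lay at chromosome 3, 25416201 to 25456400 (40.2 kb, 1532 reads, fold 2.17), 266.6 kb from the nearest H3K4me3 island. At chromosome 4, 64901001 to 64932400 (31.4 kb, 1144 reads, fold 4.32), the distance was 113.8 kb. The other 3 of the top 5 were 20.8 to 25.8 kb wide and 11.8 to 117 kb away, with folds of 2.28 to 3.73. Conversely, 11 of the 24237 H3K4me3 islands without overlap had H3K27me3 within 1 kb on both sides. The one with most reads, 492 at a fold of 2.74, lay at chromosome 3, 87773601 to 87779200. The next, with 406 reads at a fold of 5.31, lay at chromosome 6, 4549201 to 4553600. Gaps to H3K27me3 were 0.4 to 0.8 kb on either side of both.

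The share of overlapping islands varied between chromosomes. For H3K4me3 it ran from 6.39% on chromosome 7 to 17.4% on chromosome 4, with a median of 10.4%. For H3K27me3 it ran from 20.4% on chromosome 14 to 49.7% on chromosome 4, with a median of 39.9%. Chromosome 14 had 584 H3K27me3 islands with the highest median control density of any autosome, 7.14 reads per kb, and a median fold of 2.24. With each autosome left out in turn, the shares over the rest stayed between 10.4 and 11.3% for H3K4me3 and between 36.9 and 39.3% for H3K27me3.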

How the data were processed

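ChIP-seq islands of H3K4me3 and H3K27me3 in WT cells were used, from 1 library per mark. Reads were mapped with Bowtie (version not given in the sources used here) to mm9 and islands were called with SICER version 1.1, per the submitters' processing notes. Settings named on the deposited lists are 200 bp windows, gaps of 200 bp (H3K4me3) or 600 bp (H3K27me3) and an FDR of 0.05. Per island the authors deposited ChIP and control read counts, unscaled, a p-value, an adjusted p-value and a fold. For read filters and library totals the sources give nothing. The deposited fold ratio equalled ChIP over control counts divided by a depth ratio of 1.78 (H3K4me3) or 1.68 (H3K27me3), with 0.25 for a control count of 0, in 100% of islands.

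Positions are 1-based mm9. Density is reads per kb of island width, and quoted densities, folds and widths of classes are medians. The 95% intervals, Clopper-Pearson (exact binomial) on shares and from ranks on medians, cover neither library nor mapping differences. The classes, regions and settings were chosen with earlier results of these data known. Regions named in the text are the 5 that lead each of 7 rules: most H3K4me3 islands per H3K27me3 island, most whole H3K27me3 islands per H3K4me3 island, longest edge overlap, same ends (all 7), most H3K4me3 reads with and without H3K27me3, most H3K27me3 reads more than 5 kb from H3K4me3 at a fold of 2 or more, and H3K4me3 between H3K27me3 islands within 1 kb. The pairing of islands and the distances were tested on simulated data, and overlap counts differed from bedtools 2.31.1 by 0 islands. Python 3.11.15, numpy 2.4.6, pandas 2.3.3, scipy 1.17.1 and matplotlib 3.10.9 were used. No sequences are printed, since a genome of mm9 was not used here.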

Additional observations from a re-analysis of the deposited data

How the results depend on the processing

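Each of 7 results was recomputed under 8 or 9 alternatives; 39 values stayed within the interval (or 1.5 times the count) of the reported one, 18 moved and 1 reversed, and, shortened lists apart, the cause was not tested. The reversed one is H3K27me3 density with against without H3K4me3, a log2 ratio of 0.33 by reads per kb and −0.69 by fold. It was 0.37 at an adjusted p-value of 1e-05 and 0.36 at a fold of 2 or more. A fold of 2 or more, which shortens both lists, left 1339 H3K4me3 and 1362 H3K27me3 islands with overlap in place of 2970 and 2947. Overlap was judged by count, and the shares moved in settings counted as unchanged. The shares of 10.9% (H3K4me3) and 37.9% (H3K27me3) were 9.27% and 32.0% at 1e-05. With 50% overlap they were 8.46% and 25.9%. In the remaining settings they were 10.1 to 11.5% and 36.6 to 39.3%. The share of overlapping H3K4me3 islands wholly inside H3K27me3 was 41.2%, and 37.2% with H3K4me3 islands joined over 600 bp, 37.8% at 1e-05, 38.8% without chromosomes 4 and 13, 31.0% at a fold of 2 and 53.2% where the overlap had to reach 50% of the smaller island. The median distance of 160.2 kb became 205 kb at 1e-05, 167.2 kb with all chromosomes, 241.4 kb at a fold of 2 and 153.8 kb with 50% overlap. The log2 ratio of H3K4me3 density, −0.14, was −0.22 with joined islands, −0.32 at 1e-05, −0.24 by fold, −0.28 at a fold of 2 and −0.22 with 50% overlap. Chromosome 14 left out, and the ratios in classes of width and control density, were added after the data were seen. No paired analysis was possible because each mark has 1 WT library. Library depth is unknown, so a place without an island may hold reads below the threshold.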
